A study of Mus musculus with 30 samples.

Results

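Retinas of mouse pups with oxygen-induced retinopathy (OIR) that had received a mixture of 2 human progenitor cell types at postnatal day 5 (P5) were compared with retinas of pups given saline on the same day. The samples were taken by their titles: 3 retinas of the group titled ECFC+CD34 at P5 and 3 of the group titled saline at P5, 6 of the 30 arrays in the series. In OIR, nursing pups breathe 75% oxygen for 5 days from P7, lose capillaries of the central retina, and become hypoxic when they return to room air. The mixture held 100000 endothelial colony-forming cells (ECFC) and 10000 CD34+ cells, 110000 cells in all, injected into the vitreous before the oxygen exposure. Both groups thus share the injection, its day and the oxygen. The label gives P17 as the stage of all 6 retinas, whereas the series design text pairs injection at P5 with collection at P12. The strain is not given in the sources used here. Each array carried RNA of 1 retina from 1 pup, so the 3 replicates of a group are 3 pups.

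ECFC are endothelial progenitors that can line new vessel walls, and CD34+ cells are blood-forming progenitors that act on vessels mainly through secreted factors. The developing retinal vessel grows by tip cells that follow vascular endothelial growth factor (VEGF), and it is stabilised when platelet-derived growth factor B (PDGF-B) from endothelium draws pericytes onto the new wall. High oxygen stops this growth, and later hypoxia drives it past its normal bounds into tufts. The series title concerns whether the mixture restores vessel development through pericyte cover, so vessel and pericyte genes are described beside the genes that differed most.

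Several of the 6 arrays stood apart in RNA that a dissection can bring along, and these values precede the results. The mean log2 value of 18 lens genes, chiefly crystallins, was 13.32, 12.83 and 10.44 in saline replicates 1 to 3 and 11.80, 8.99 and 8.74 in combination replicates 1 to 3. The groups overlapped, the difference of means was -2.36, and an exact two-sided permutation test over the 6 arrays gave p = 0.2, where 0.1 is the smallest possible. Lens means were 6.25 to 8.70 in the groups not injected at P5. The myelin list averaged 9.70 in combination replicate 2 against 5.84 to 6.24 in the other 5 arrays. All 3 combination retinas and 1 of 3 saline retinas carried female levels of Xist, the X-inactivation RNA. The spiked hybridisation controls averaged 12.72, 11.92 and 12.03 in the saline arrays and 12.61, 12.45 and 12.70 in the combination arrays. Rod photoreceptor genes, the defining markers of retina, averaged 12.74 to 13.03 in all 6, which matches the labelled tissue. Array medians lay between 8.38 and 8.48.

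**Figure D1:**
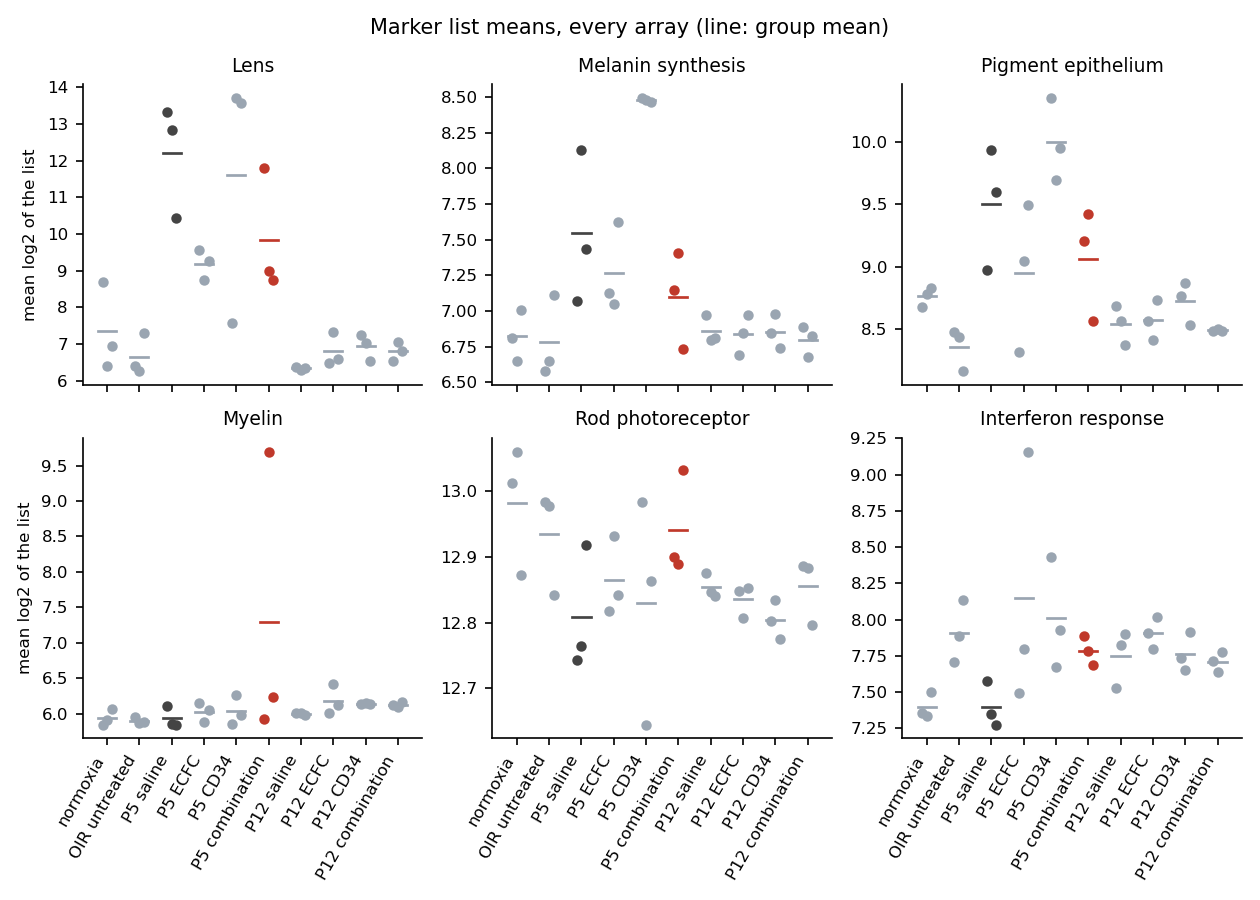
Mean log2 value of 6 marker lists (y axes, 1 panel each) on every array of the 10 groups (x axis), with a line at the group mean; P5 saline is dark grey and the P5 combination red. Lens means of the P5 saline arrays (13.32, 12.83 and 10.44) lie above those of groups not injected at P5, and combination replicate 2 alone stands at 9.70 in the myelin list.

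No gene passed limma's moderated test at an adjusted p under 0.05 among 12393 genes, which is 0% of those tested. At an unadjusted p under 0.05, 978 genes differed, against 620 that 5% of 12393 would give: 372 were higher after the combination (3% of genes tested) and 606 lower (4.89%). The count of 978 did not hold throughout. It was 560 without saline replicate 1 and 561 with only the 12 P5 arrays, both under 620, but 1294 without saline replicate 2. The 3 arrays of 1 group lay wholly above those of the other for 594 genes in the higher direction (4.79%) and 1145 in the lower (9.24%). These shares are the background for the list counts and the non-overlaps given below, and 42.1% of all genes were positive. The median difference over all genes was -0.03 on the log2 scale, with a median standard error (SE) of 0.15 and a median 95% confidence interval of ± 0.30. A typical gene thus had to differ by more than 0.30 to reach an unadjusted p under 0.05, and by more still to pass the adjusted test. All differences below are log2 values of the combination minus saline ± SE, and each adjusted p is limma's, by Benjamini-Hochberg over 12393 genes. When all 22626 probe sets were tested, 1 was called (0.00442%). It is assigned to more than 1 gene, so no gene is named for it. It read 12.61, 12.61 and 12.60 in saline and 11.93, 11.99 and 12.08 in the combination, a change of -0.61 ± 0.08 (adjusted p = 0.0034). Array weights gave 237 called genes, the hybridisation control mean as a covariate gave 575, and leaving out saline replicate 3 gave 17.

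**Figure D2:**
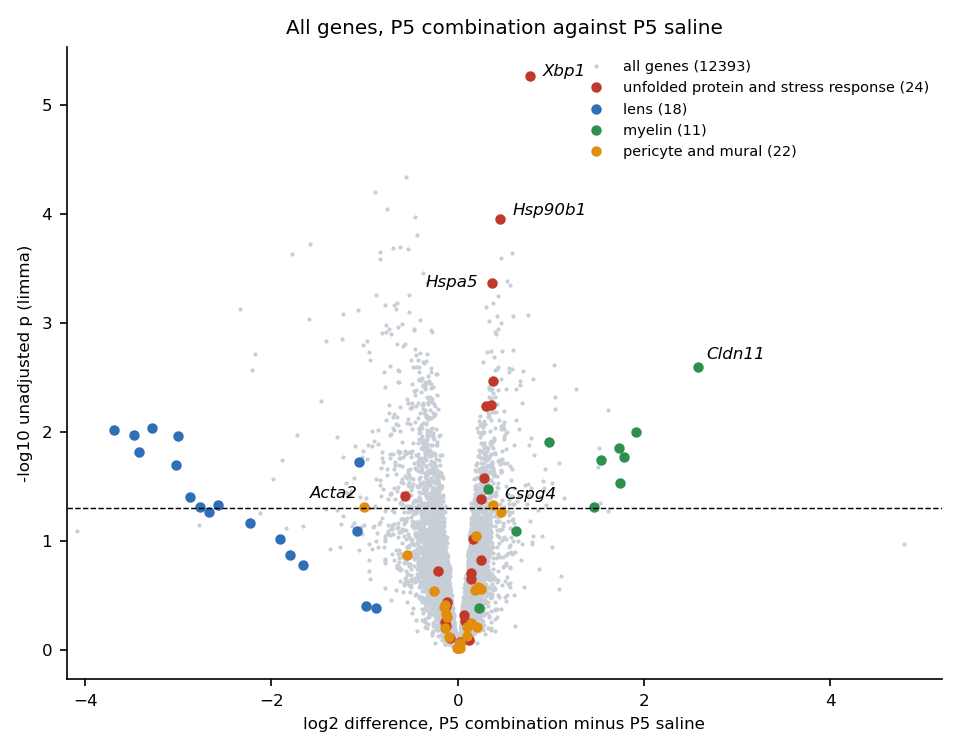
Log2 difference of each of 12393 genes (x axis) against minus log10 of its unadjusted limma p (y axis); coloured points are members of the lens, myelin, pericyte and stress response lists, and the dashed line marks the unadjusted threshold of 0.05. Xbp1 stands highest at 0.77, lens genes lie to the left down to -3.69, and pericyte genes gather near 0.

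The lowest adjusted p belonged to Xbp1, the transcription factor that IRE1 splices into its active form when unfolded protein builds up in the endoplasmic reticulum (ER). Its log2 values were 8.977, 9.445 and 9.463 in the saline arrays and 10.090, 10.004 and 10.111 in the combination arrays. All 3 combination retinas lay above all 3 saline retinas, and saline replicate 1 was lowest. The difference was 0.77 ± 0.13 (95% interval 0.50 to 1.05, a 1.71-fold higher level, adjusted p = 0.0666). In bulk retina a higher level per cell and more cells that express the gene cannot be told apart. The 4 probe sets of Xbp1 gave 0.61 to 0.77. The value was 0.73 (adjusted p = 0.127) with the lens mean as a covariate and 0.74 (adjusted p = 0.111) with sex. It was 0.62 (adjusted p = 0.461) without saline replicate 1 and 0.86 (adjusted p = 0.0176) without saline replicate 3, and passed the threshold after quantile normalization (0.79, adjusted p = 0.0078) and median centring (0.80, adjusted p = 0.0076). Array weights (adjusted p = 0.0041), the hybridisation covariate (9.19e-04), trend and robust eBayes (0.0328) and leaving out dim genes (0.0357) also let it pass. It did not pass with the replicate block (adjusted p = 0.102), the mean of its probe sets (0.0561) or only the 12 P5 arrays (0.964). With only the 6 arrays in the fit the adjusted p was 0.782.

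Chaperones of the ER lumen lay in the same direction. Hsp90b1, the ER member of the HSP90 family, read 11.72, 12.10 and 12.16 in saline and 12.45, 12.47 and 12.44 in the combination, a difference of 0.46 ± 0.10 (adjusted p = 0.20). Hspa5, which codes BiP, the chaperone that holds the stress sensors inactive, read 12.17, 12.29 and 12.45 in saline and 12.64, 12.73 and 12.66 in the combination. That difference was 0.37 ± 0.09 (adjusted p = 0.26). A second probe set gave 0.51 for Hspa5 and 0.41 for Hsp90b1. In both genes the groups did not overlap, and the combination arrays lay closer together than the saline arrays. Leaving out each array in turn moved Hsp90b1 between 0.33 and 0.54 and Hspa5 between 0.31 and 0.45. Both kept their direction with the lens covariate, at 0.37 and 0.29.

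Genes of this response share a promoter element, the ER stress element, which the factor ATF6 reads together with NF-Y. The 250 bases before the start of 3 of the leading genes are shown because the element tells which of them carry it in this window. They are printed 5′ to 3′ from RefSeq on build GRCm38.p6, with a match to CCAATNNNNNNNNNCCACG on either strand in capitals. Hspa5 is chr2:34771840-34772089 on the plus strand, Hsp90b1 is chr10:86705445-86705694 on the minus strand and Xbp1 is chr11:5520391-5520640 on the plus strand.
Hspa5: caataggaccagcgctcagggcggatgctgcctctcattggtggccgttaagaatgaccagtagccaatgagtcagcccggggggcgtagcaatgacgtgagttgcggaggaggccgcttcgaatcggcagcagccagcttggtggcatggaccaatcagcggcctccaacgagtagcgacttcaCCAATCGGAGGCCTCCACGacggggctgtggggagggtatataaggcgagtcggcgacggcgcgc
Hsp90b1: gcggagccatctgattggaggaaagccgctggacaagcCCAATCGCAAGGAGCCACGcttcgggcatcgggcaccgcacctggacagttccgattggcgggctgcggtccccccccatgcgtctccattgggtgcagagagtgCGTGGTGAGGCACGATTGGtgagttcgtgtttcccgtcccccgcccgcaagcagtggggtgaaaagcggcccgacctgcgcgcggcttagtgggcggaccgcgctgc
Xbp1: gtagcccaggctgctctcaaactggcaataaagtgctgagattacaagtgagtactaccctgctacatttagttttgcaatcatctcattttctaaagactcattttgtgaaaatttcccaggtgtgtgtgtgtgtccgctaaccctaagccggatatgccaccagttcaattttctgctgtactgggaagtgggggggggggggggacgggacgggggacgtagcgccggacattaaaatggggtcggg
Hspa5 held 1 match, beginning 65 bases before the start. Hsp90b1 held 2, the first at 212 bases before the start on the gene's strand and the other at 107 on the opposite strand. The Xbp1 window held none. Of the 22 stress response genes with a promoter in the table, 7 held the element (31.8%): Calr, Canx, Creld2, Dnajc3, Hsp90b1, Hspa5 and Pdia6. Among all 27025 promoters 35 did (0.13%), and among the 9887 genes on the array that had a promoter 17 did (0.172%). This motif was chosen after the gene values were seen, and a match is a description of letters, not of binding.

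The list of unfolded protein and integrated stress response genes had 24 measured members, of which 0 passed the adjusted test. At an unadjusted p under 0.05, 8 lay higher and 1 lower, beside 3% and 4.89% of all genes. The median difference of the list was 0.13, against -0.03 for all genes, and 17 of 24 were positive against 42.1% of all genes. The 8 were Xbp1, Hsp90b1 and Hspa5 with Manf, Dnajb9, Canx, Creld2 and Pdia6. Manf, an ER-resident factor that is also secreted and protects neurons, differed by 0.38 ± 0.12 (adjusted p = 0.37). Dnajb9, a BiP cochaperone, differed by 0.36 ± 0.12 and overlapped between the groups. Canx, the lectin chaperone calnexin, differed by 0.30 ± 0.10, Creld2 by 0.28 ± 0.12 and the disulfide isomerase gene Pdia6 by 0.25 ± 0.12. Without saline replicate 1, Canx lay at 0.15 and Dnajb9 at 0.17, neither under an unadjusted p of 0.05, and 5 of the 24 members lay higher at that threshold. Members that did not reach that threshold included chaperone genes as well as genes of translation control. Herpud1, which acts in the removal of misfolded protein, differed by -0.11 ± 0.12, the chaperone gene Hyou1 by 0.07 ± 0.10 and the BiP cochaperone gene Dnajc3 by 0.07 ± 0.12. Ddit3, the factor CHOP, differed by 0.03 ± 0.14, Trib3 by -0.12 ± 0.23, Ppp1r15a, a phosphatase subunit that restores translation, by -0.09 ± 0.30 and the asparagine synthetase gene Asns by 0.01 ± 0.16. Atf4, the factor whose translation rises under stress, differed by 0.14 ± 0.11. The 1 lower member was Phgdh, the first enzyme of serine synthesis, at -0.56 ± 0.26.

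P5 saline was the lowest of the 10 group means for Xbp1, Hspa5, Hsp90b1, Dnajb9 and Canx. It ranked 2 from the lowest for Manf, 3 for Creld2 and 5 for Pdia6. The combination mean was the highest of the 10 for Xbp1, but ranked 7 from the lowest for Hspa5, 5 for Hsp90b1 and Canx, and 2 for Dnajb9. The hybridisation controls averaged 11.86 to 12.96 in the P5 arrays and 13.23 to 13.65 in the P12 arrays. Ranks over the 10 groups thus also span arrays that differ in these controls. Xbp1 averaged 9.30 in P5 saline, 9.77 in normoxia, 10.06 in untreated OIR, 10.02 after ECFC alone, 10.01 after CD34+ cells alone and 10.07 after the combination. Each cell treatment at P5 is set against the same 3 saline arrays, so their values are given side by side. These were 0.72 for ECFC, 0.71 for CD34+ cells (adjusted p = 0.0029, the only one of the 3 to pass) and 0.77 for the combination. Adjustment runs within each comparison, and CD34+ cells minus saline called 1049 genes against 0 for the combination. These adjusted p values therefore do not rank the treatments by evidence for Xbp1. The combination differed from ECFC alone by 0.05 ± 0.13 (95% interval -0.22 to 0.33) and from CD34+ cells alone by 0.06 ± 0.13 (-0.21 to 0.34). In pups injected at P12, the combination minus saline was -0.18 ± 0.13. The difference between injection days was 0.96 ± 0.19 for Xbp1 (adjusted p = 0.138) and 0.45 ± 0.13 for Hspa5 (adjusted p = 0.307). Neither passed.

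**Figure D3:**
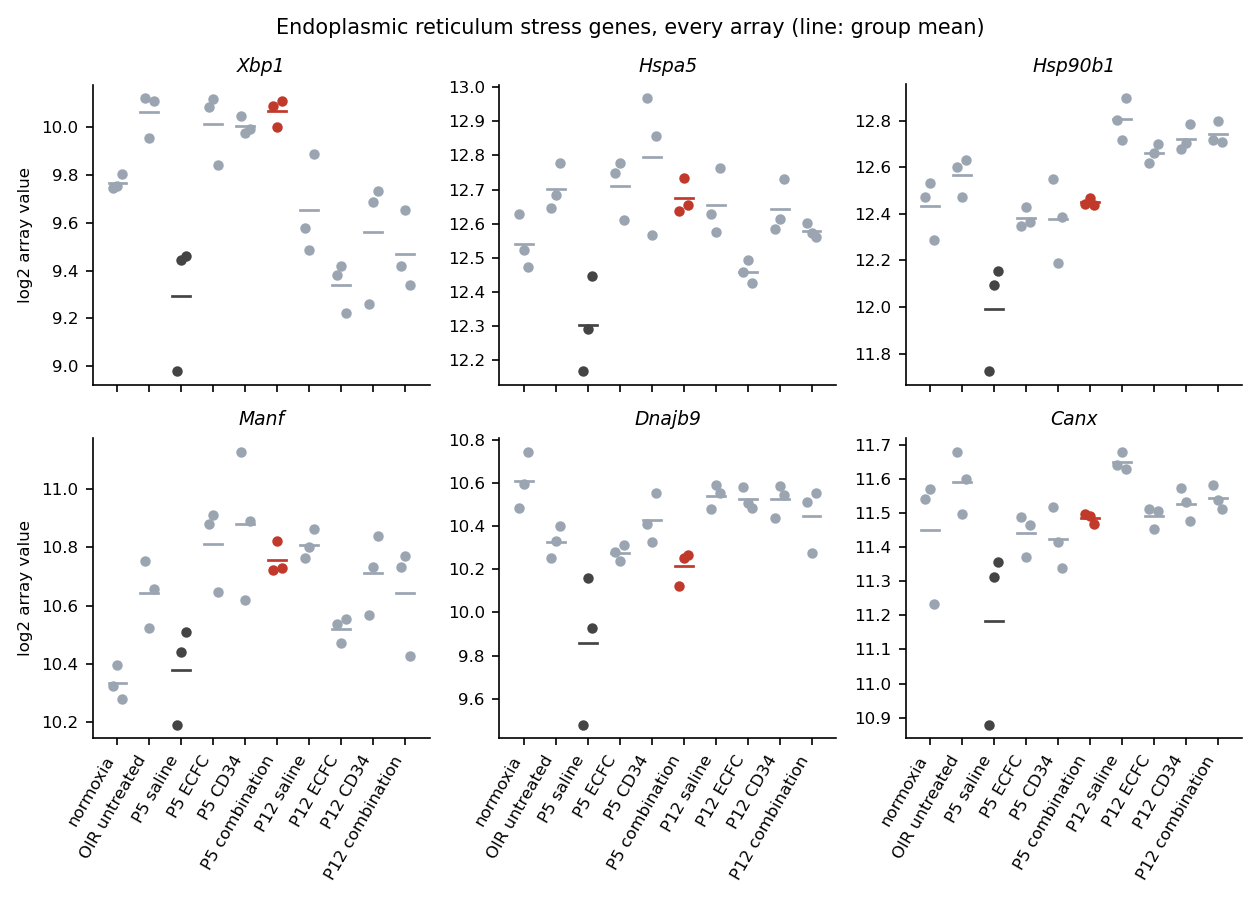
Log2 value of 6 ER stress genes (y axes) on every array of the 10 groups (x axis), with a line at each group mean; P5 saline is dark grey and the P5 combination red. The 3 combination points lie above the 3 saline points for Xbp1, Hspa5, Hsp90b1, Manf and Canx, and overlap them for Dnajb9; the ECFC and CD34 groups of the same day lie near the combination for Xbp1.

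Other genes with the smallest p in the higher direction did not pass either. Sp4, a zinc finger transcription factor of neurons, read 9.87, 10.31 and 10.14 in saline and 10.56, 10.56 and 10.96 in the combination, a difference of 0.59 ± 0.13 (adjusted p = 0.20). A second probe set of Sp4 gave 0.02. Cdh11, a mesenchymal cadherin, read 9.32, 9.76 and 9.69 in saline and 10.10, 10.08 and 10.18 in the combination, a difference of 0.53 ± 0.13 (adjusted p = 0.26). The groups did not overlap in either gene. Klhl9, an adaptor of a ubiquitin ligase, differed by 0.46 ± 0.11, Tspyl1 by 0.57 ± 0.14, the nuclear import gene Kpna1 by 0.43 ± 0.11, the endocytic gene Sgip1 by 0.38 ± 0.10 and Zfp955b by 0.31 ± 0.08. Their adjusted p lay between 0.20 and 0.28. The probe sets did not all give 1 value: Tspyl1 spanned 0.09 to 0.57, Kpna1 -0.01 to 0.43 and Zfp955b 0.05 to 0.31.

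In the lower direction the smallest p belonged to C920021L13Rik, at -0.56 ± 0.11 (adjusted p = 0.20). Emid1, a secreted matrix protein gene, read 9.68, 9.65 and 9.20 in saline and 8.55, 8.56 and 8.76 in the combination, a difference of -0.88 ± 0.18 (adjusted p = 0.20). Vit, which codes the matrix protein vitrin, read 9.86, 9.48 and 7.96 in saline and 7.69, 7.28 and 7.58 in the combination. The groups did not overlap, but saline replicates 1 and 2 carried most of the difference of -1.59 ± 0.36. These 2 arrays also had the highest lens means of the 6. Combination replicate 1 had a higher lens mean than saline replicate 3 (11.80 against 10.44) but a lower Vit value. With the lens mean as a covariate Vit stood at -1.07 (adjusted p = 0.43) and Emid1 at -0.77 (adjusted p = 0.33). The part of lens RNA in the Vit values was not tested further. Nectin4, an epithelial adhesion gene, differed by -0.83 ± 0.19, the muscle ankyrin gene Ankrd2 by -0.76 ± 0.16, Vps33b, which acts in vesicle fusion, by -0.46 ± 0.10, and Ptov1 by -0.44 ± 0.10. A second probe set of Ptov1 gave 0.11. Emid1 was also lower than after ECFC alone, by -0.69 ± 0.18, and than after CD34+ cells alone, by -1.07 ± 0.18 (adjusted p = 0.0012), but only the latter passed.

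Genes of the vessel growth signal gave no difference that passed. Vegfa, whose protein drives sprouting under hypoxia, read 10.26, 10.31 and 10.32 in saline and 9.99, 9.98 and 10.09 in the combination. The arrays did not overlap, yet the difference of -0.28 ± 0.18 (95% interval -0.64 to 0.09, adjusted p = 0.74) did not pass, and another Vegfa probe set gave 0.09. Its receptor gene Kdr read 11.30, 11.60 and 11.80 in saline and 11.98, 11.93 and 11.78 in the combination, a difference of 0.33 ± 0.17 (adjusted p = 0.64). The groups overlapped, and saline replicate 1 was lowest. The decoy receptor gene Flt1 differed by -0.07 ± 0.12. Of the 10 VEGF ligands and receptors none passed, none reached an unadjusted p under 0.05, and the median was -0.02.

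Tip cell genes that mark untreated OIR stood nearer to normoxia in both groups. Esm1, which codes endocan of the sprouting tip cell, read 4.80, 4.58 and 3.46 in saline and 3.87, 4.07 and 4.45 in the combination, a difference of -0.15 ± 0.48. Its mean was 3.77 in normoxia and 8.18 in untreated OIR. Apln, the tip cell ligand apelin, differed by 0.09 ± 0.35, with means of 7.12 and 7.21 beside 6.57 in normoxia and 9.82 in untreated OIR. Angpt2, which loosens mural cell contact, differed by 0.02 ± 0.31, and Dll4, the Notch ligand that limits tip cells, by -0.31 ± 0.18. A second probe set of Dll4 gave 0.16. Untreated OIR was labelled P17 as well, so if the P5 groups were collected at P12 their distance from it also spans collection days, and the 2 cannot be told apart. Of the 20 measured tip cell genes 0 passed, 10 were positive and the median was -0.04. Col4a1 and Col4a2, which form the same collagen IV chain trimer, were the 2 with an unadjusted p under 0.05.

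Pericyte genes showed no difference that passed. Pdgfrb, the receptor by which pericytes follow PDGF-B, read 9.15, 9.06 and 9.03 in saline and 9.01, 9.13 and 8.76 in the combination, a difference of -0.12 ± 0.17 (95% interval -0.46 to 0.23). A second probe set of Pdgfrb gave 0.08. Cspg4, which codes the pericyte proteoglycan NG2, read 6.95, 7.48 and 7.80 in saline and 7.85, 7.98 and 7.55 in the combination, a difference of 0.38 ± 0.18 (0.01 to 0.76, adjusted p = 0.63). The groups overlapped in both genes, and saline replicate 1 was the low array of Cspg4, without which the difference was 0.15. Rgs5, a pericyte regulator of G protein signalling, differed by 0.18 ± 0.17 (-0.16 to 0.52) and the ligand gene Pdgfb by 0.09 ± 0.17 (-0.26 to 0.44). Kcnj8, a pericyte potassium channel gene, differed by 0.10 ± 0.30. Acta2, the actin of contractile mural cells, read 9.16, 10.14 and 8.48 in saline and 8.69, 8.48 and 7.60 in the combination, a difference of -1.01 ± 0.48 (adjusted p = 0.63), or -0.56 without saline replicate 2. Over the 22 measured pericyte and mural cell genes 0 passed, 12 were positive, and 1 lay higher and 1 lower at an unadjusted p under 0.05. The median of 0.03 became -0.10, with 7 of 22 positive, without saline replicate 1.

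Against each single cell type, Cspg4 and Pdgfrb gave no difference that passed, whereas Acta2 was lower than after CD34+ cells alone. Acta2 read 10.25, 11.51 and 10.90 in the CD34 arrays, all above the 3 combination arrays, and the difference was -2.63 ± 0.48 (adjusted p = 0.0022). Against ECFC alone Acta2 lay at -0.51 ± 0.48 and did not pass. Cspg4 differed from ECFC alone by 0.02 ± 0.18 and from CD34+ cells alone by 0.01 ± 0.18, with 95% intervals of -0.36 to 0.40 and -0.37 to 0.39. Pdgfrb differed by -0.15 ± 0.17 and 0.12 ± 0.17. In the pups injected at P12 the combination minus saline was -0.06 ± 0.18 for Cspg4 and -0.08 ± 0.17 for Pdgfrb. The intervals of Cspg4 allow a difference in either direction.

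No endothelial gene passed either. Pecam1, the pan-endothelial adhesion gene, read 8.19, 8.14 and 8.11 in saline and 8.20, 8.10 and 8.16 in the combination, a difference of 0.01 ± 0.17. Cdh5, the endothelial cadherin, differed by 0.14 ± 0.19 and the tight junction gene Cldn5 by 0.06 ± 0.24. Plvap, the diaphragm protein of leaky vessels, read 7.44, 7.36 and 7.18 in saline and 6.95, 7.01 and 7.08 in the combination. Its arrays did not overlap, and the difference was -0.31 ± 0.17 (adjusted p = 0.69). Itm2a was the 1 of 28 measured endothelial genes with an unadjusted p under 0.05, at 0.38 ± 0.14, and the list median of 0.03 became -0.10, with 6 of 28 positive, without saline replicate 1. Norrin signalling and barrier genes, which set up the blood-retina barrier, had a median of 0.06 over 15, and the Notch pathway 0.05 over 16.

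**Figure D4:**
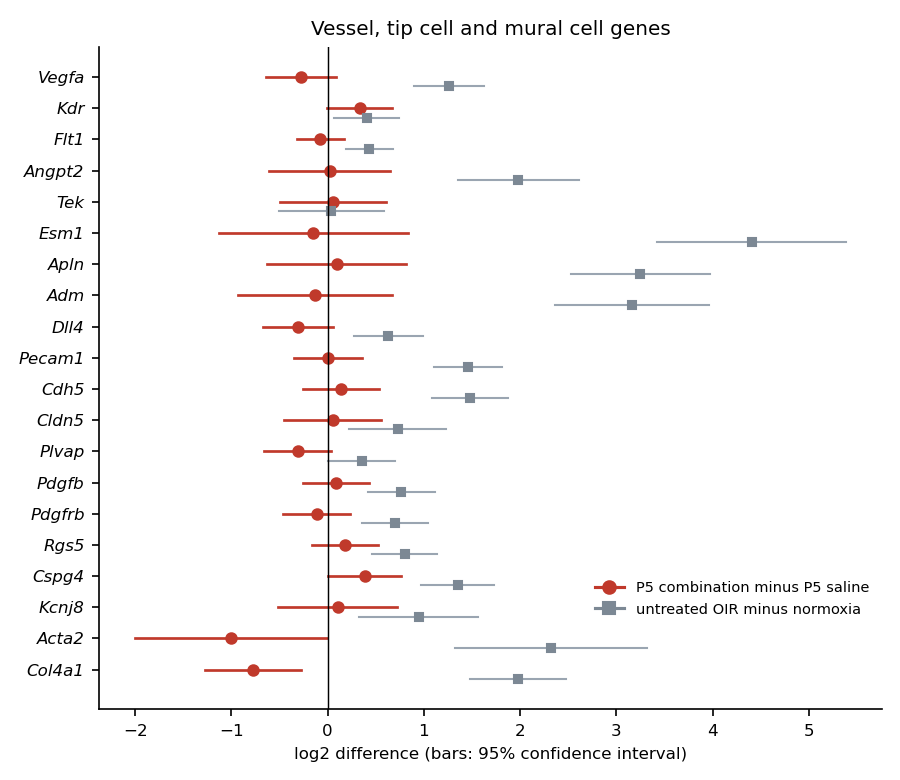
Log2 difference of 20 vessel, tip cell and mural cell genes (x axis) with 95% confidence intervals, for the P5 combination minus P5 saline (red circles) and untreated OIR minus normoxia (grey squares). The red intervals include 0 for most genes, with Vegfa at -0.28 and Pdgfrb at -0.12, while Esm1 and Apln lie at 4.41 and 3.25 in untreated OIR.

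Basement membrane genes lay both ways. Col4a1, a chain of the main collagen IV trimer, read 11.86, 12.22 and 11.72 in saline and 11.30, 11.02 and 11.15 in the combination, a difference of -0.78 ± 0.24 (adjusted p = 0.38). Its partner Col4a2 differed by -0.66 ± 0.29 and Nid1, which links collagen IV to laminin, by -0.97 ± 0.38. All 3 combination arrays lay below all 3 saline arrays in these genes. Col4a3, a chain of the other collagen IV trimer, read 8.81, 9.18 and 8.32 in saline and 7.44, 7.84 and 7.33 in the combination, at -1.23 ± 0.32 (adjusted p = 0.28). Others lay the opposite way: Col15a1 differed by 0.69 ± 0.22 and Fbln1, a matrix fibulin, by 1.51 ± 0.61. Of 27 measured members 0 passed, and the median was -0.11, or 0.06 without combination replicate 3. At an unadjusted p under 0.05, 3 lay higher and 5 lower, beside 3% and 4.89% of all genes. Lens capsule also contains collagen IV, and the lens list lay 2.36 lower in the same arrays. With the lens mean as a covariate 3 lay higher and 2 lower, and the part of lens tissue in these values was not tested further.

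Among stromal genes Postn, the matrix protein periostin, read 7.18, 7.21 and 7.08 in saline and 7.78, 7.66 and 8.28 in the combination, a difference of 0.75 ± 0.20 (adjusted p = 0.28). The groups did not overlap. Col5a1 differed by 0.67 ± 0.21 and Col1a2 by 0.91 ± 0.39, the latter highest in combination replicate 2, whereas the collagen VI gene Col6a1 lay lower, at -0.44 ± 0.18. Of 20 measured stromal genes 0 passed. At an unadjusted p under 0.05, 4 lay higher and 1 lower, beside 3% and 4.89% of all genes.

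Hypoxia targets had no common direction. Hk2, a hexokinase at the head of glycolysis, read 10.533, 10.259 and 10.519 in saline and 10.745, 10.870 and 10.998 in the combination, a difference of 0.43 ± 0.14 (adjusted p = 0.38). The collagen prolyl hydroxylase genes P4ha1 and P4ha2 lay at -0.33 ± 0.14 and -0.39 ± 0.19. The groups did not overlap in these 3 genes, which were chosen by the smallest p. Over all genes 4.79% did not overlap in the higher direction and 9.24% in the lower. At an unadjusted p under 0.05, 1 of 34 measured targets lay higher and 2 lower, beside 3% and 4.89% of all genes. Of these targets 0 passed, and their median was 0.04. The core of the hypoxia response element, ACGTG on either strand, stood within 250 bases before the start in 19 of 30 of them (63.3%), Hk2, P4ha1, P4ha2 and Vegfa among these. It stood in 4998 of 27025 promoters (18.5%), and in 2276 of the 9887 genes on the array that had a promoter (23%).

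The genes that untreated OIR changed against normoxia, 565 or 4.56% of those tested, share no array with the present comparison. Over the 445 that were higher in OIR, the combination minus saline had a median of 0.03, 242 were positive, and 20 lay higher and 17 lower at an unadjusted p under 0.05. Over the 120 that were lower in OIR the median was -0.05 and 55 were positive. Against normoxia the 445 had a median of 0.29 in the saline retinas and 0.33 in the combination retinas, beside 0.85 in untreated OIR. These medians against normoxia use the same normoxia arrays that chose the genes. That choice favours positive values, most of all in untreated OIR, so no conclusion is drawn from them.

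Glial genes varied from pup to pup. Gfap, the filament of reactive glia, read 10.78, 7.96 and 8.24 in saline and 9.88, 11.36 and 10.33 in the combination, a difference of 1.53 ± 0.72 (adjusted p = 0.63). Saline replicate 1 lay among the combination arrays. The same saline retina was highest of the 6 in other genes of retinal injury: Edn2, an endothelin that damaged photoreceptors make, read 10.66 there and 4.99 to 8.86 elsewhere, Fgf2 11.30 against 8.39 to 10.60 and Hmox1 12.66 against 7.29 to 10.27. Without that array Gfap differed by 2.43, while its adjusted p over the 6 arrays left out in turn ran from 0.67 to 0.92. Aqp4, the water channel of Muller glia and astrocytes, read 10.53, 10.68 and 10.57 in saline and 11.04, 11.47 and 10.93 in the combination, at 0.55 ± 0.17 (adjusted p = 0.35). Slc1a3, the glial glutamate transporter, differed by 0.34 ± 0.11, and Fgfr3 lay lower at -0.74 ± 0.25. The groups did not overlap in these 3 genes, chosen by the smallest p, beside 4.79% (higher) and 9.24% (lower) of all genes. The Muller glia list had a median of 0.08 and the gliosis list 0.13. At an unadjusted p under 0.05, 3 of 23 and 1 of 26 lay higher, beside 3% of all genes.

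Photoreceptor genes lay slightly higher in the combination retinas. Of 26 measured rod genes 25 were positive, against 42.1% of all genes, with a median of 0.13. None passed, and 4 lay higher at an unadjusted p under 0.05, beside 3% of all genes. Slc24a1, the rod cation exchanger, read 12.27, 12.25 and 12.50 in saline and 12.55, 12.52 and 12.76 in the combination, a difference of 0.27 ± 0.09 (adjusted p = 0.46). The ciliary gene Rp1 differed by 0.29 ± 0.12 and the rod transducin gene Gnat1 by 0.14 ± 0.07. Cone genes had a median of 0.23 over 12, led by the middle-wave opsin gene Opn1mw at 0.33 ± 0.13. The saline arrays with the highest lens means, replicates 1 and 2, had the lowest rod means, 12.74 and 12.76. Combination replicates 1 and 2, with lens means of 11.80 and 8.99, had rod means of 12.90 and 12.89. With the lens mean as a covariate the rod median was 0.03 with 19 of 26 positive. The lens mean itself differed between the groups, and its part in the rod values was not tested further.

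Interferon-response and antigen presentation genes lay higher in 25 of 27 cases, with a median of 0.37 against -0.03 for all genes. None of the 27 passed. The arrays did not overlap for 10, all higher, beside 4.79% of all genes, and 3 had an unadjusted p under 0.05. Ifitm3, a membrane protein that blocks viral entry, read 10.20, 9.87 and 9.75 in saline and 11.21, 10.46 and 10.61 in the combination, at 0.82 ± 0.32 (adjusted p = 0.51). Stat2, the interferon signal carrier, differed by 0.36 ± 0.12 and the tetherin gene Bst2 by 0.50 ± 0.24. Over the alternatives for scaling, covariates and leaving out single arrays the median stayed between 0.29 and 0.63, the first with the lens covariate and the second with sex. Against the same saline arrays the list median was 0.80 for ECFC and 0.64 for CD34+ cells. The ECFC arrays were uneven, with list means of 7.49, 7.80 and 9.16, so replicate 3 stood far above the other two. Microglial genes had a median of 0.17 with 20 of 26 positive and 0 at an unadjusted p under 0.05. That direction turned with the lens mean as a covariate, to a median of -0.23 with 6 of 26 positive, while array weights gave 0.54 with 25 positive and 16 higher at that threshold. Aif1, the microglial calcium-binding protein Iba1, read 7.16, 6.95 and 6.96 in saline and 7.90, 7.54 and 7.31 in the combination, a difference of 0.56 ± 0.34 (adjusted p = 0.72) with no overlap. The receptor gene Cx3cr1 differed by 0.27 ± 0.23.

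Lens, melanin and pigment epithelium genes lay lower in the combination by their medians. Not all tissue beside the retina did: ciliary body and iris genes had a median of 0.17 with 9 of 14 positive. Cryaa, the lens chaperone alpha-A crystallin, read 14.01, 13.87 and 11.57 in saline and 12.85, 9.02 and 8.96 in the combination, a difference of -2.87 ± 1.31 (adjusted p = 0.61). All 18 measured lens genes were lower in the combination mean, from -0.88 to -3.69 with a median of -2.62, yet the groups overlapped in every one. The median was -0.49 with 4 of 18 positive under array weights, and -4.21 with 13 of 18 called with the hybridisation controls as a covariate. Melanin synthesis genes had a median of -0.56 over 11, 6 of them lower at an unadjusted p under 0.05, beside 4.89% of all genes. Oca2, a melanosome transporter gene, lay at -0.64 ± 0.22. Pigment epithelium and visual cycle genes had a median of -0.35 over 15. Krt8, an epithelial keratin, read 7.44, 8.32 and 7.79 in saline and 6.91, 7.27 and 6.56 in the combination, a difference of -0.94 ± 0.27 (adjusted p = 0.35). The desmosome genes Dsp and Perp, from the corneal and surface epithelium list, lay at -1.24 ± 0.34 and -1.07 ± 0.28. That list had a median of -0.09 over 15, with 3 positive. Dsp and Perp were its only 2 members at an unadjusted p under 0.05. The arrays of the groups did not overlap in Krt8, Dsp and Perp, chosen by the smallest p, beside 9.24% of all genes in that direction.

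Myelin genes rested on 1 retina. Cldn11, the claudin of myelin, read 4.42, 4.19 and 4.39 in saline and 4.57, 10.33 and 5.86 in the combination, a difference of 2.58 ± 0.76 (adjusted p = 0.35). Mag, a myelin adhesion gene, read 9.23 in combination replicate 2 and 4.02 to 4.62 in the other 5 arrays. With all arrays the 11 measured genes had a median of 1.53 and 9 lay higher at an unadjusted p under 0.05. Without combination replicate 2 the median was 0.16 and 1 did.

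**Figure D5:**
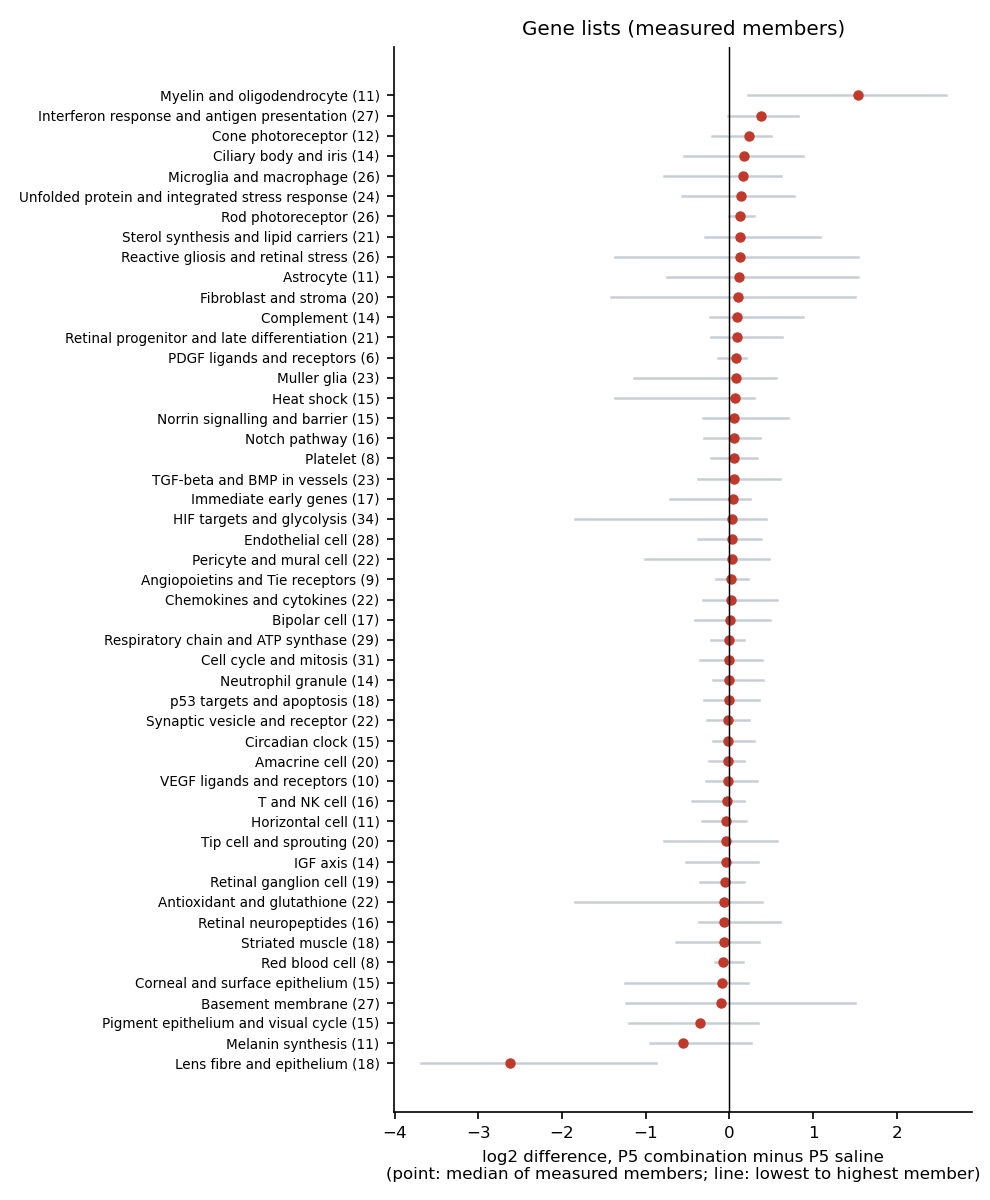
Log2 difference of the P5 combination minus P5 saline (x axis) for each gene list with at least 5 measured members (y axis, number measured in brackets): the point is the median and the line runs from the lowest to the highest member. Lens (-2.62) and myelin (1.53) stand at the ends, interferon genes at 0.37, and pericyte and endothelial genes at 0.03.

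Against each cell type given alone at the same day, the combination differed from ECFC in 0 genes (0%) by limma's adjusted test, with 151 at an unadjusted p under 0.05. It differed from CD34+ cells in 970 genes (7.83%), 529 higher and 441 lower. That count fell to 379 without combination replicate 2, 464 without combination replicate 1 and 641 without CD34 replicate 1. For the day of injection, the difference of the 2 combination effects, at P5 and at P12, passed in 0 genes (0%), with 1419 at an unadjusted p under 0.05 and a lowest adjusted p of 0.0532. Nectin4 lay at -0.83 ± 0.19 after injection at P5 and 0.51 ± 0.19 after P12, a difference between days of -1.34 ± 0.27 (adjusted p = 0.147). A second Nectin4 probe set gave -0.21 after P5, and the mean of the probe sets -0.52.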

How the data were processed

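Total RNA of each retina was amplified, biotin-labelled and hybridised to an expression array, per the labels' protocols. The authors' deposited values are on a log2 scale and cover 22690 probe sets. Partek is listed in the submitters' processing notes. How probes were summarised and arrays normalized is not given in the sources used here, and no further scaling was applied. Probe sets with 1 gene symbol (20380) were reduced to the brightest per gene, giving 12393 genes, and 691 with several symbols, 1555 with none and 64 controls were left out. No pair of arrays held identical values.

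Groups came from the sample titles. limma 3.58.1 in R 4.3.3 took all 30 arrays into the fit, a mean for each of 10 groups, leaving 20 residual degrees of freedom, with eBayes, two-sided tests and Benjamini-Hochberg adjustment over 12393 genes. Genes were called at an adjusted p under 0.05. The fitting script was tested on simulated data. With 3 arrays per group their number limits the precision. Residual correlations between arrays of equal replicate number were 0.08, 0.28 and -0.04, so the numbers were not treated as pairs.

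The text names up to 10 genes with the smallest p in each direction, a fixed set of vessel, glial and marker genes, and up to 5 members with the smallest p from each of 51 gene lists (905 of 1012 members measured). Further stress response genes and the promoter motif were named after their values were seen. The comparison, the lists and the tests were chosen with earlier results of these data known. The alternatives are given in the closing section.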

Additional observations from a re-analysis of the deposited data

How the results depend on the processing

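The count of genes called for the combination against saline, 0 with the reported settings, was 1 with all probe sets, the lens mean as a covariate, median centring, quantile normalization, trend and robust eBayes, dim genes left out or an adjusted p under 0.10. It was 237 with array weights, of which 61 were higher, and 575 with the spiked hybridisation controls as a covariate, of which 200 were higher. It was 0 with the mean of a gene's probe sets, sex as a covariate, a 1.5-fold minimum, only the 6 arrays and only the 12 P5 arrays. With the replicate number as a block it was 0, with 988 at an unadjusted p under 0.05 against 978 without the block. Leaving out each array in turn gave 0 to 17 genes, 17 without P5 saline replicate 3. For the combination against CD34+ cells the range was 379 to 1339, against ECFC alone 0 to 0, and for the difference between injection days 0 to 4. Leaving out each array, the lens difference of means ran from -3.33 to -1.79. Of 320 named genes, 87 changed sign under at least 1 alternative. Among the 180 that differed by over 0.3, 26 did. The cause of these changes was not tested. The number of arrays, 3 per group, limits what can be told from 0. For a typical gene the unadjusted 95% interval was ± 0.30 on the log2 scale, and the adjusted test asked for a larger difference.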

Other observations

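Several other gene groups are given here as values. The 31 measured cell cycle and mitosis genes had a median log2 difference of -0.01 between the combination and saline, with 0 at an unadjusted limma p under 0.05. Respiratory chain and ATP synthase genes had a median of 0.00 over 29. Synaptic genes had a median of -0.01 over 22, retinal ganglion cell genes -0.05 over 19, bipolar cell genes 0.01 over 17 and amacrine cell genes -0.02 over 20. Sterol synthesis and lipid carrier genes had a median of 0.13. Of these 21, 16 were positive and 3 higher at an unadjusted p under 0.05, beside 42.1% and 3% of all genes. Their list means overlapped, at 9.68, 10.02 and 10.01 in saline and 10.01, 10.36 and 9.92 in the combination. Ciliary body and iris genes had a median of 0.17 over 14, 3 of them higher at that threshold, beside 3% of all genes. The 4 metallothioneins had a median of -0.33 with 0 at it. Neutrophil granule genes (-0.01 over 14) and red blood cell genes (-0.08 over 8) gave no member at that threshold.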
